A study of Homo sapiens with 18 samples.

Results

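The AP-1 and EGR early transcription factors are described here across EA.hy926 endothelial cells that were transfected in 3 ways and then given poly(I:C). The group held 10 genes, FOS, FOSB, FOSL1, FOSL2, JUN, JUNB, JUND, ATF3, BATF3 and EGR1, which were chosen by gene symbol among the 62754 genes listed. All 10 were among the 15167 genes that passed the filter on low counts, which asked for 100 counts or more over all libraries and for 1 CPM or more in the highest of them. CPM is the number of counts scaled to a library of 1 M. Library sizes were plain totals in the filter and were adjusted by TMM factors for the levels given below.

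EA.hy926 is a line made by fusing human umbilical vein endothelial cells with A549 lung epithelial cells, so that it is a hybrid line and not primary endothelium. Mock cells received the transfection reagent without siRNA, siNT cells a non-targeting siRNA at 10 nM and siELMO1 cells a pool of siRNAs against ELMO1 at 10 nM. ELMO1 is an adaptor that works with DOCK proteins to activate the small GTPase RAC1. RNA was taken 48 h after transfection from serum-starved cells (0 h) and from cells kept a further 24 h with poly(I:C), a synthetic double-stranded RNA that activates TLR3, at 1 μg/ml (24 h). Each of the 6 conditions had 3 libraries that the study calls biological replicates, 18 in all. No condition held cells kept for 24 h without poly(I:C), so the effects of poly(I:C) and of time in culture cannot be told apart.

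AP-1 is a dimer of leucine zipper proteins. JUN, JUNB and JUND can pair with each other, with the FOS proteins (FOS, FOSB, FOSL1, FOSL2) or with ATF and BATF proteins, and the partners set whether the dimer prefers the AP-1 site or the closely related cAMP response element (CRE). EGR1 is a zinc finger factor that binds GC-rich sites and is held in check by the co-repressors NAB1 and NAB2. FOS and EGR1 are textbook immediate-early genes, switched on within minutes by MAP kinases acting through serum response factor and its ELK partners at CArG boxes, and switched off soon after, whereas FOSL1, FOSL2 and JUND are known for slower or steadier expression. In endothelial cells these factors respond to growth factors, flow, stress and innate immune signals.

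Libraries held 40.4 to 73.9 M estimated counts. ELMO1, the targeted gene, was at 0.155 to 0.419 CPM in the 6 siELMO1 libraries and at 1.52 to 3.58 CPM in the other 12, with a log2 fold change of siELMO1 against siNT of -3.11 ± 0.28 (SE; adjusted p = 2.74e-08) at 0 h and of -3.64 ± 0.29 (adjusted p = 1.43e-08) at 24 h. Of 12 endothelial markers 10 were over 1 CPM in every condition, EMCN was at or near 0, and their summed level was 2852 to 3124 CPM in siELMO1 at 0 h against 1994 to 2122 CPM for Mock and 2014 to 2103 CPM for siNT. Of 7 epithelial markers KRT8 and KRT18 were over 1 CPM in every condition and CDH1 and NKX2-1 were at 0, the 4 leukocyte markers summed to at most 0.496 CPM, and of 6 fibroblast and mural markers only RGS5 was over 1 CPM. The share of counts from mitochondrially encoded genes ran from 1.31% to 1.44% in Mock at 0 h and from 1.71% to 2.42% in the other conditions, apart from siELMO1 at 0 h, where replicate 1 had 1.86% and replicates 2 and 3 had 4.02% and 3.95%. Results that rest on siELMO1 at 0 h are therefore also given without replicate 1, which differed from replicates 2 and 3, where that changes a call. Such a fit keeps the libraries with the high shares. It shows how far a call rests on replicate 1 and cannot show what the shares do. Whether the marker levels or the mitochondrial shares had a part in the differences below was not tested.

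In the GENCODE 44 annotation of GRCh38 all 10 are protein-coding genes. Of the JUN family, JUN lies at chr1:58776845-58784048 on the minus strand, JUNB at chr19:12791486-12793315 on the plus strand and JUND at chr19:18279694-18281622 on the minus strand. Of the FOS family, FOS lies at chr14:75278826-75282230, FOSB at chr19:45467995-45475179 and FOSL2 at chr2:28392448-28417317, each on the plus strand, and FOSL1 at chr11:65892049-65900573 on the minus strand. ATF3 lies at chr1:212565334-212620777 on the plus strand and BATF3 at chr1:212686417-212699840 on the minus strand of the same region, and EGR1 lies at chr5:138465479-138469303 on the plus strand.

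Promoter windows of 300 bases, 250 before to 50 after the start, were available for 8 of the 10 genes (all but FOSL1 and BATF3) from RefSeq (GRCh38.p14). A searched motif was found in the windows of 5 of them, and 4 are shown, those of EGR1, JUN, JUND and FOSL2, because these genes differed in how they changed and together hold each kind of motif that was found. The windows lie at chr5:138465229-138465528 (plus strand) for EGR1, chr1:58783998-58784297 (minus strand) for JUN, chr19:18281573-18281872 (minus strand) for JUND and chr2:28392608-28392907 (plus strand) for FOSL2. Capitals mark the motifs, and all sequences run 5′ to 3′ on the strand of the gene.
EGR1: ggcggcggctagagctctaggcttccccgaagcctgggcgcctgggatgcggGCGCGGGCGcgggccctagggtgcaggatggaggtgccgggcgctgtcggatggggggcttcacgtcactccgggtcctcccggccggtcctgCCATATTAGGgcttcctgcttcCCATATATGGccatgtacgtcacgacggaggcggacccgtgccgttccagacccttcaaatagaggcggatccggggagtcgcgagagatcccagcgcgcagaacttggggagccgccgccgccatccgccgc
JUN: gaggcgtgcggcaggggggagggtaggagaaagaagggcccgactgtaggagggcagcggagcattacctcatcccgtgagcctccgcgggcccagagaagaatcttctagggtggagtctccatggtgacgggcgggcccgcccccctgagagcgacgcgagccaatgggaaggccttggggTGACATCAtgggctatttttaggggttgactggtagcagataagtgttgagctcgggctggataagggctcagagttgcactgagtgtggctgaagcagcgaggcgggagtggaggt
JUND: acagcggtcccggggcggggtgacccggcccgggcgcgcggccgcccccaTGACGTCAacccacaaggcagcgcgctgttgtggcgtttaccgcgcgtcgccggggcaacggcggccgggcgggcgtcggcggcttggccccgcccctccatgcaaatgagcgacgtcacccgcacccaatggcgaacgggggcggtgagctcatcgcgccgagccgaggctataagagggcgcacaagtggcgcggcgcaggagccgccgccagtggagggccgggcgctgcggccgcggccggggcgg
FOSL2: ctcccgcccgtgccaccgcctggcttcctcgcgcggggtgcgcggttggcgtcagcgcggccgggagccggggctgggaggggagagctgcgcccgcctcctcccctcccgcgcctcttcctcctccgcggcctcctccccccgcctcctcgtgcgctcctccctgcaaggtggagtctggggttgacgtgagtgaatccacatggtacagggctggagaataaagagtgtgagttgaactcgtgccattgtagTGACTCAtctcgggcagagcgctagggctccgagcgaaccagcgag

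The EGR1 window held CArG boxes at bases -105 to -96 and -83 to -74 from the start and an EGR site (GCGNGGGCG) at -198 to -190. A CArG box was present in 1.29% and an EGR site in 9.43% of the 35116 promoter windows in the table, both strands searched. The JUND window held the full CRE (TGACGTCA, 1.85% of windows) at -200 to -193. The FOSL2 window held an AP-1 site (TGANTCA, 7.71% of windows) at bases 4 to 10 after the start. The JUN window held TGACATCA at -67 to -60, a CRE-like variant that was added to the search after the windows had been read and was present in 2.61% of windows. An ATF3 window, which is not printed, held the same variant at -123 to -116. Its start lies 43354 bases from that of ATF3-202, the main annotated transcript of ATF3. Another ATF3 window, with a start 6257 bases from that of ATF3-202, held none of the motifs. None of these motifs, nor the NF-κB site (11.3% of windows), was found in the windows of FOS, FOSB and JUNB. The matches describe letters in a fixed window and not binding, and they were not related to any value by a test.

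On a per-length scale (TPM, transcripts per 1 M transcripts, computed from the transcript counts), the group was led by FOSL1 in all 6 conditions, followed by JUN. FOSL1 was at 245 ± 6.4 TPM (SD, n = 3) in Mock at 0 h and at 752 ± 28 TPM in Mock at 24 h. JUN stayed between mean levels of 142 and 177 TPM in every condition. JUND, JUNB, FOSL2 and ATF3 followed, and FOS, FOSB, EGR1 and BATF3 had mean levels of 0.595 to 9.52 TPM. The order in the middle changed with poly(I:C). JUNB moved up from rank 4 or 5 at 0 h to rank 3 at 24 h in each transfection, and ATF3 from rank 6 to rank 4 in Mock and to rank 5 in siELMO1, while it stayed at rank 6 in siNT. At 24 h in Mock the mean levels of JUNB, ATF3 and JUND were 158 ± 18, 154 ± 10 and 152 ± 3.2 TPM, and these neighbours in the order were within their spread.

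Within the FOS family, FOSL1 supplied most of the transcripts. Its share of the summed level of FOS, FOSB, FOSL1 and FOSL2 was 77.7% ± 3.0 (SD, n = 3) in siELMO1, 85.1% ± 0.33 in Mock and 90.7% ± 0.39 in siNT at 0 h. At 24 h it was 88.7% ± 1.0 in siELMO1, 93.7% ± 0.23 in siNT and 95.3% ± 0.22 in Mock. FOSL2 supplied most of the rest, from 3.90% in Mock at 24 h to 19.1% in siELMO1 at 0 h, and FOS and FOSB together were a small part everywhere. The library shares of FOSL1 did not overlap between any of the 3 transfections at either time. In the JUN family the share of JUNB was 8.60% ± 0.57 in Mock at 0 h and 33.0% ± 3.5 at 24 h, that of JUN was 54.9% ± 1.0 and 35.3% ± 3.0, and that of JUND was 36.5% ± 1.1 and 31.7% ± 0.52. These shares are descriptions with no test.

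**Figure D1:**
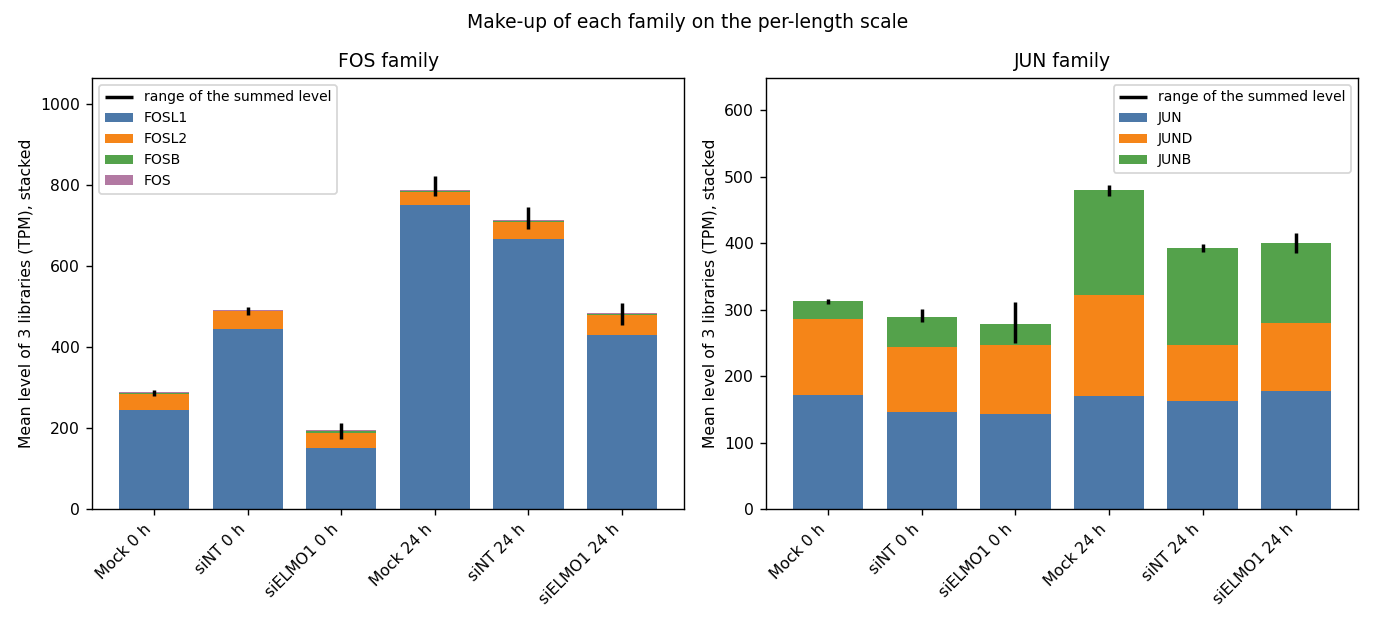
Stacked bars give the mean TPM of 3 libraries for each gene of the FOS family (left) and the JUN family (right) in the 6 conditions, and black lines the range of the summed level over the 3 libraries. FOSL1 forms most of every FOS family bar and its block is smallest in siELMO1 at 0 h, and JUNB grows from 8.60% to 33.0% of the JUN family between Mock at 0 h and Mock at 24 h.

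The first comparison asks which of these factors stood higher or lower after 24 h of poly(I:C), within each transfection. In Mock cells JUNB, ATF3, FOSL1, BATF3, EGR1 and JUND rose, FOSL2 fell, and FOS, FOSB and JUN did not pass the test. JUNB, ATF3, FOSL1, BATF3 and EGR1 rose in all 3 transfections, though the EGR1 call in siELMO1 was lost under some alternatives given below. In Mock the changes were largest for ATF3 and JUNB, which rose 7.55-fold and 6.40-fold. In siNT and siELMO1 ATF3 also had the largest change, followed by BATF3. Counted over the group, 6 of 10 genes rose and 1 fell in Mock, where 30.7% of all genes tested were higher and 29.6% lower. In siNT 6 rose and 0 fell, against 28.6% higher and 25.2% lower of all genes. That count of 0 is from edgeR with adjusted p; with an unadjusted p under 0.05 it was 1, with DESeq2 1 and with limma-voom 0, the gene being JUND, and with library totals or upper-quartile factors it was 2, JUND (adjusted p = 0.0427 and 0.0261) and FOSL2 (adjusted p = 0.0498 and 0.0307). In siELMO1 7 rose and 1 fell, against 28.0% and 26.9% of all genes. The group's median log2 fold change was 1.07 in Mock, 0.78 in siNT and 0.48 in siELMO1, with the median of all genes at 0.01 in Mock, 0.01 in siNT and 0.00 in siELMO1. With unadjusted library totals as the scale the median of all genes in Mock shifted to -0.11. In bulk RNA fewer cells that make a transcript and less transcript per cell cannot be told apart, here and in the comparisons that follow. Over the same interval the summed level of the epithelial markers went from between 765 and 792 CPM to between 484 and 494 CPM in Mock, from between 812 and 817 CPM to between 533 and 545 CPM in siNT and from between 976 and 1087 CPM to between 533 and 627 CPM in siELMO1. That of the endothelial markers went from between 1994 and 2122 CPM to between 1486 and 1878 CPM in Mock, and the part of either in these changes was not tested.

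**Figure D2:**
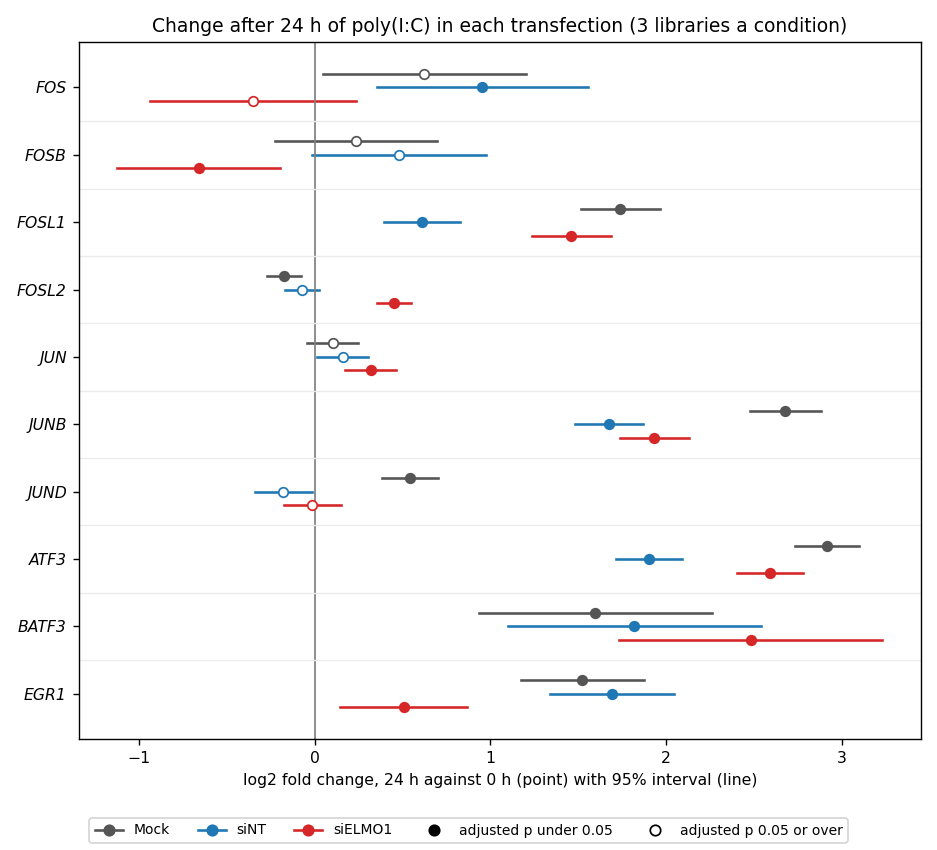
Points give the log2 fold change of 24 h against 0 h for each gene in Mock, siNT and siELMO1, lines the 95% interval, and filled points an adjusted p under 0.05. ATF3 and JUNB lie farthest to the right in Mock (2.92 and 2.68), the siNT point of FOSL1 lies at 0.61 to the left of its other points, and the siELMO1 point of EGR1 lies at 0.51 below those of Mock and siNT.

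ATF3 is a stress-induced member of the ATF/CREB family that acts as a repressor as a homodimer and can activate with JUN partners. It stood at 17.0, 18.1 and 15.8 CPM in Mock, 6.89, 7.64 and 7.55 in siNT and 9.32, 8.90 and 8.50 CPM in siELMO1 at 0 h. At 24 h it was at 124, 140.0 and 121 CPM in Mock, 27.9, 26.5 and 28.2 in siNT and 50.5, 49.1 and 61.8 CPM in siELMO1. All libraries of each transfection were higher at 24 h than at 0 h, the 3 transfections did not overlap at either time, and siNT was lowest at both. The log2 fold change with poly(I:C) was 2.92 ± 0.09 (SE; adjusted p = 5.84e-15) in Mock, 1.90 ± 0.09 (adjusted p = 7.16e-12) in siNT and 2.59 ± 0.09 (adjusted p = 6.34e-14) in siELMO1.

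JUNB is a JUN protein that activates less strongly than JUN at many sites. Its levels were 19.0, 21.2 and 20.0 CPM in Mock, 35.8, 38.0 and 36.0 in siNT and 26.7, 23.0 and 24.2 CPM in siELMO1 at 0 h. At 24 h they were 124, 118 and 144 CPM in Mock, 117, 114 and 120.4 in siNT and 86.7, 86.1 and 110.1 CPM in siELMO1. At 0 h siNT was the highest of the 3 transfections and Mock the lowest, and at 24 h Mock and siNT overlapped with siELMO1 below both. JUNB rose by 2.68 ± 0.09 (log2 fold change ± SE; adjusted p = 7.42e-14) in Mock, 1.68 ± 0.09 (adjusted p = 6.14e-11) in siNT and 1.93 ± 0.09 (adjusted p = 7.93e-12) in siELMO1. The HOOK2 gene overlaps JUNB on the opposite strand, and the counting strand is not given in the sources used here.

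FOSL1 encodes FRA-1, a FOS protein without a strong activation domain of its own that is itself a target of AP-1. It was at 150.2, 152 and 146 CPM in Mock, 292, 299 and 276 in siNT and 76.7, 116 and 108 CPM in siELMO1 at 0 h. At 24 h it was at 482, 537 and 478 CPM in Mock, 429, 463 and 433 in siNT and 276, 296 and 254 CPM in siELMO1. The siELMO1 libraries were below all others at each time, and replicate 1 of siELMO1 at 0 h was the lowest of the 18. FOSL1 rose by 1.74 ± 0.11 (log2 fold change ± SE; adjusted p = 1.44e-10) in Mock, 0.61 ± 0.10 (adjusted p = 7.46e-05) in siNT, where it began highest, and 1.46 ± 0.11 (adjusted p = 2.15e-09) in siELMO1.

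EGR1 stood at 2.60, 2.73 and 2.21 CPM in Mock, 2.76, 2.35 and 2.02 in siNT and 2.09, 1.98 and 1.68 CPM in siELMO1 at 0 h. At 24 h it was at 6.81, 8.45 and 6.38 CPM in Mock, 7.16, 9.37 and 6.54 in siNT and 2.80, 2.64 and 2.73 CPM in siELMO1. Mock and siNT overlapped at both times. The siELMO1 libraries lay below those of Mock at 0 h, and below both at 24 h, where they were close to the 0 h levels of Mock. EGR1 rose by 1.52 ± 0.17 (log2 fold change ± SE; adjusted p = 3.43e-07) in Mock and 1.69 ± 0.17 (adjusted p = 1.48e-07) in siNT. In siELMO1 the log2 fold change was 0.51 ± 0.17 (adjusted p = 0.018). This call was lost without siELMO1 0 h replicate 3 (0.42, adjusted p = 0.0762), with limma-voom (adjusted p = 0.0765) and in a fit of only the libraries compared (adjusted p = 0.0568).

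BATF3, a small leucine zipper protein best known in dendritic cells that pairs with JUN proteins and has no activation domain, was near the lower end of detection. Its levels were 1.30, 1.11 and 1.56 CPM in Mock, 0.463, 0.460 and 0.314 in siNT and 0.313, 0.351 and 0.339 CPM in siELMO1 at 0 h, with 14 to 31 counts per library in the latter conditions. At 24 h they were 3.33, 4.63 and 4.04 CPM in Mock, 0.973, 0.982 and 2.41 in siNT and 2.03, 1.30 and 2.28 CPM in siELMO1. Mock was above both siRNA groups at each time, and the siNT and siELMO1 libraries overlapped. BATF3 rose by 1.60 ± 0.31 (log2 fold change ± SE; adjusted p = 0.000284) in Mock, 1.82 ± 0.34 (adjusted p = 0.000216) in siNT and 2.48 ± 0.36 (adjusted p = 1.16e-05) in siELMO1.

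The remaining genes moved little or not in the same way. JUN, the central partner of the family, was at 185 to 269 CPM over all 18 libraries and had log2 fold changes of 0.10 ± 0.07 in Mock, 0.16 ± 0.07 in siNT and 0.32 ± 0.07 in siELMO1, of which only the last passed the test (adjusted p = 0.000792). JUND, a JUN protein known for steady expression, rose in Mock from between 86.5 and 91.6 CPM to between 126 and 136 CPM, by a log2 fold change of 0.54 ± 0.08 (adjusted p = 8.47e-06). In siNT JUND had a log2 fold change of -0.18 ± 0.08 (adjusted p = 0.0595), which passed the test with DESeq2 (-0.19, adjusted p = 0.0319), and in siELMO1 one of -0.01 ± 0.08. FOSL2, which encodes FRA-2, fell by 0.18 on the log2 scale in Mock (adjusted p = 0.00304) and by 0.30 with unadjusted library totals as the scale, and it rose in siELMO1 by a log2 fold change of 0.45 ± 0.05 (adjusted p = 1.92e-07). FOS rose in siNT (0.95 ± 0.29, adjusted p = 0.00915), and in Mock its log2 fold change of 0.62 ± 0.27 (adjusted p = 0.0575) passed the test only with DESeq2 and limma-voom and without Mock 24 h replicate 3. FOSB, a partner of JUN proteins like FOS, fell in siELMO1 by 0.66 on the log2 scale (adjusted p = 0.017), a call lost without siELMO1 24 h replicate 2 or 3 or without siELMO1 0 h replicate 2.

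**Figure D3:**
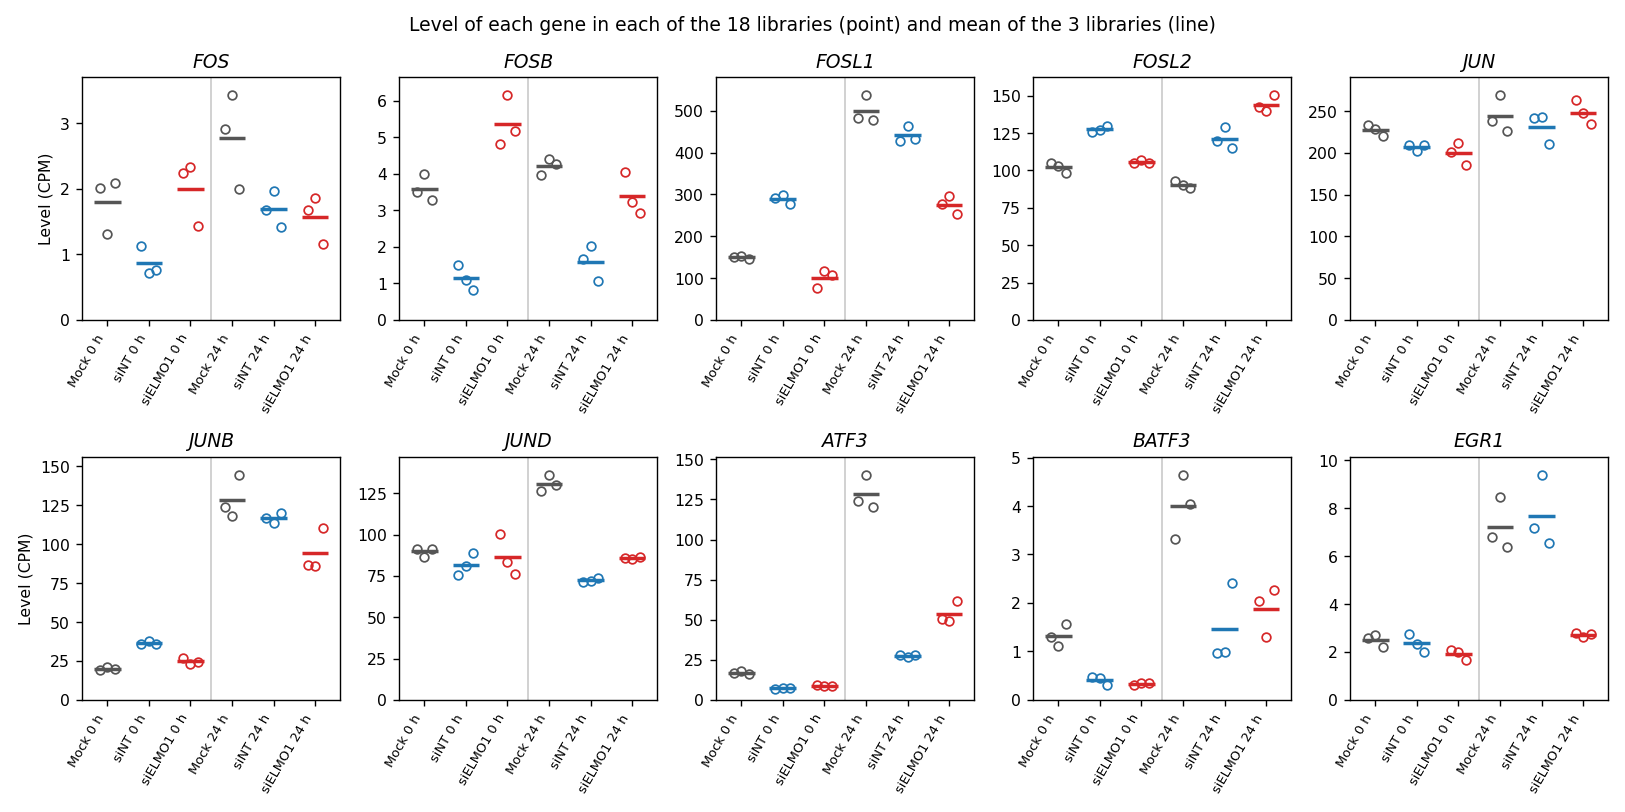
Each panel gives the level of 1 gene in CPM on a linear axis from 0, with a point for each of the 18 libraries, a line for the mean of the 3 libraries of a condition, and the 0 h conditions left of the 24 h conditions. EGR1 in siELMO1 at 24 h lies between 2.64 and 2.80 CPM below Mock and siNT, FOSB in siNT lies lowest at both times, and JUN stays between 185 and 269 CPM throughout.

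The next comparison asks how the transfections differed before poly(I:C). FOSB, FOS and, by a smaller difference, ATF3 were higher, and FOSL1, JUNB and FOSL2 lower, in siELMO1 than in siNT at 0 h, while EGR1, JUN, JUND and BATF3 did not pass the test. FOSB, FOS and ATF3 were also lower, and FOSL1, JUNB and FOSL2 higher, in siNT than in Mock. These comparisons share the siNT libraries, so that opposite signs are in part built in, and the values are set side by side with Mock for that reason. Of the 10 genes, 3 were higher and 3 lower in siELMO1 than in siNT at 0 h, against 31.3% of all genes in each direction. Against Mock, 2 were higher and 4 lower in siELMO1 (27.9% and 22.4% of all genes), and 3 were higher and 4 lower in siNT (27.6% and 24.0% of all genes). The count of 2 higher in siELMO1 than in Mock, FOSB and JUNB, fell to 0 with library totals and without Mock 0 h replicate 1 or 3. At 0 h siELMO1 stood above both other transfections in the summed levels of 3 marker lists, those of the endothelial markers as given above, of the epithelial markers (976 to 1087 CPM against 765 to 792 and 812 to 817 CPM) and of the fibroblast and mural markers (65.3 to 71.8 CPM against 36.4 to 39.96 and 42.6 to 50.002 CPM). Their part in these differences was not tested.

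FOSB and FOS were the genes of the group that stood higher in siELMO1 than in siNT by the largest fold at 0 h. FOSB was at 3.50, 4.00 and 3.27 CPM in Mock, 1.49, 1.10 and 0.807 in siNT and 4.81, 6.14 and 5.17 CPM in siELMO1 at 0 h. At 24 h it was at 3.98, 4.40 and 4.28 CPM in Mock, 1.66, 2.02 and 1.07 in siNT and 4.04, 3.21 and 2.91 CPM in siELMO1. The siNT libraries were below those of both other transfections at each time. FOSB was 4.73-fold higher in siELMO1 than in siNT at 0 h (log2 fold change 2.24 ± 0.23, adjusted p = 1.81e-07), and against Mock the log2 fold change of siELMO1 was 0.58 ± 0.22 (adjusted p = 0.0349). The call against Mock was lost with library totals, with no filter on low counts and when any of 5 single libraries was left out. The ERCC1 gene overlaps FOSB on the opposite strand.

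FOS was at 2.02, 1.31 and 2.08 CPM in Mock, 1.12, 0.723 and 0.762 in siNT and 2.24, 2.33 and 1.44 CPM in siELMO1 at 0 h. At 24 h it was at 2.91, 3.42 and 2.00 CPM in Mock, 1.68, 1.96 and 1.42 in siNT and 1.68, 1.86 and 1.16 CPM in siELMO1. At 0 h siNT was below the others, and at 24 h siNT and siELMO1 overlapped with Mock above both. FOS was higher in siELMO1 than in siNT at 0 h by a log2 fold change of 1.20 ± 0.29 (adjusted p = 0.00133) and lower in siNT than in Mock by -1.05 ± 0.28 (adjusted p = 0.00479). Each FOS value rests on 44 to 207 counts, a range that starts lower in BATF3 only.

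FOSL1 was lower in siELMO1 at 0 h than in siNT (log2 fold change -1.53 ± 0.11, adjusted p = 7.83e-10) and than in Mock (-0.58 ± 0.10, adjusted p = 0.000158), and higher in siNT than in Mock (0.95 ± 0.10, adjusted p = 6.35e-07). Without siELMO1 0 h replicate 1, the library with the lowest FOSL1, these siELMO1 values were -1.37 and -0.42. JUNB followed the same order of siNT and siELMO1, with -0.57 ± 0.09 (adjusted p = 3.53e-05) in siELMO1 against siNT and 0.86 ± 0.09 (adjusted p = 4.58e-07) in siNT against Mock. Against Mock, JUNB in siELMO1 was higher by 0.30 ± 0.09 (adjusted p = 0.0127), a call lost without siELMO1 0 h replicate 1 (0.23, adjusted p = 0.0656), without Mock 0 h replicate 1 (adjusted p = 0.0923) or 3 (adjusted p = 0.0601) and with library totals (adjusted p = 0.0752). FOSL2 was lower in siELMO1 than in siNT by a log2 fold change of -0.27 ± 0.05 (adjusted p = 4.87e-05) and higher in siNT than in Mock by 0.32 ± 0.05 (adjusted p = 1.43e-05), and siELMO1 and Mock overlapped.

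ATF3 and BATF3 were lower in both siRNA groups than in Mock at 0 h. For ATF3 the log2 fold change was -1.21 ± 0.09 (adjusted p = 4.45e-09) in siNT and -0.93 ± 0.09 (adjusted p = 1.02e-07) in siELMO1. For BATF3 it was -1.68 ± 0.34 (adjusted p = 0.000469) in siNT and -1.98 ± 0.35 (adjusted p = 0.000143) in siELMO1. Between the siRNA groups, ATF3 was higher in siELMO1 by 0.28 ± 0.09 (adjusted p = 0.0138), which was lost without siELMO1 0 h replicate 1 (0.24, adjusted p = 0.0573) and with limma-voom (adjusted p = 0.0935), and BATF3 had a difference of -0.31 with a 95% interval from -1.09 to 0.48. EGR1 had a difference between siELMO1 and siNT of -0.31 with a 95% interval from -0.67 to 0.05. Against Mock its difference in siELMO1 was -0.39 with a 95% interval from -0.74 to -0.03 (adjusted p = 0.0669), and the libraries did not overlap. That difference was called with library totals (adjusted p = 0.0315), with the replicate block (adjusted p = 0.0346) and without Mock 0 h replicate 3 (adjusted p = 0.0378). JUN was lower in siELMO1 than in Mock by -0.19 ± 0.07 (adjusted p = 0.027), a call lost without siELMO1 0 h replicate 3. JUND did not pass the test in any of the 3 comparisons at 0 h, but without siELMO1 0 h replicate 1 it did in siELMO1 against Mock (-0.17, adjusted p = 0.022). In a fit of only the libraries compared, siNT was lower than Mock for JUND (-0.16, adjusted p = 0.0281) and JUN (-0.17, adjusted p = 0.000822). For JUN this was also called with library totals (-0.20, adjusted p = 0.0242).

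**Figure D4:**
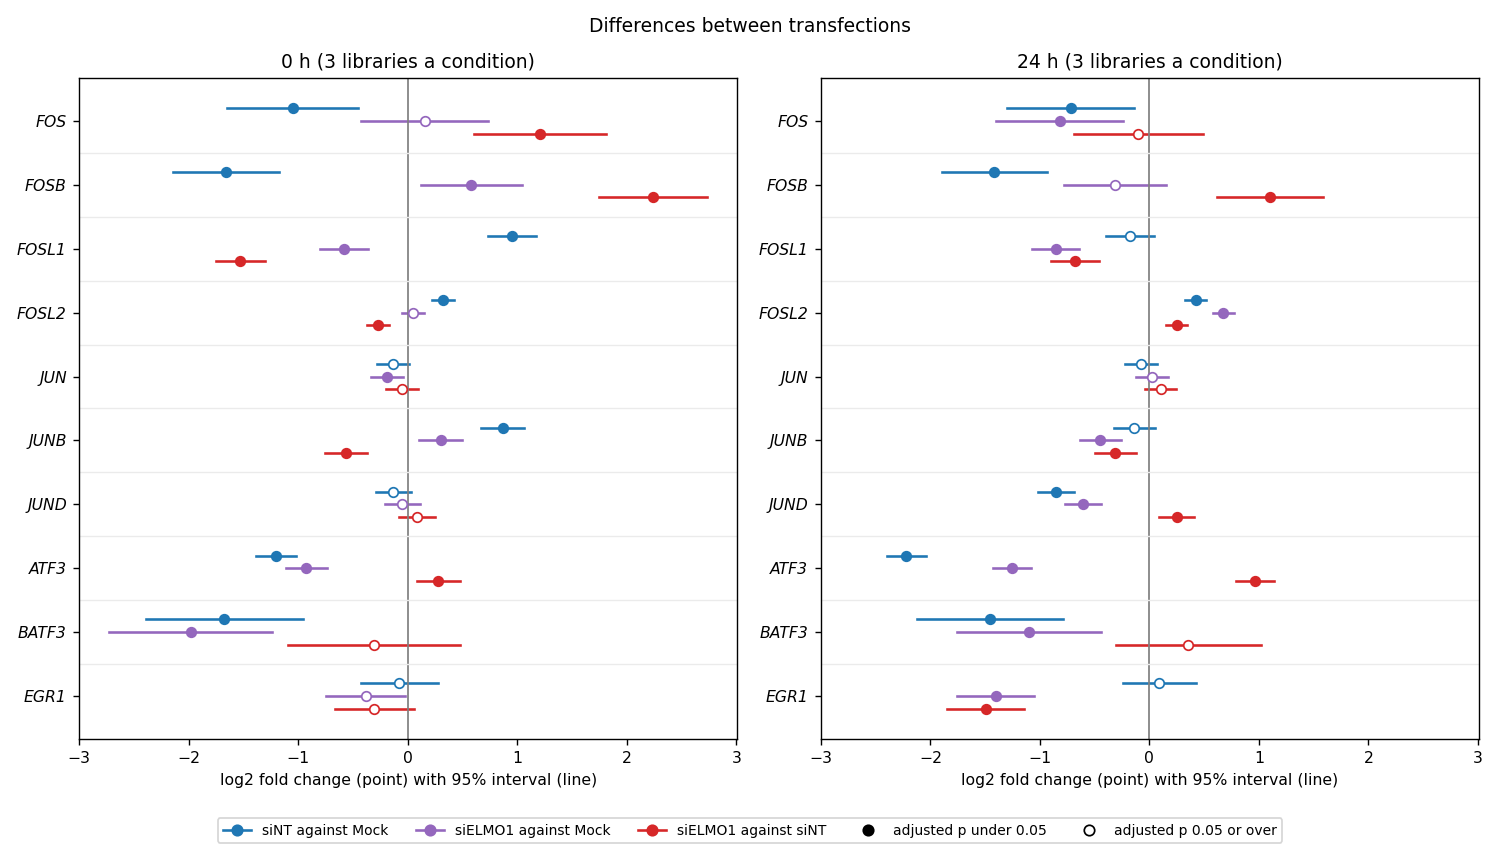
Points give the log2 fold change of each gene between transfections at 0 h (left) and 24 h (right), lines the 95% interval, and filled points an adjusted p under 0.05. FOSB and FOSL1 show the widest gaps between siELMO1 and siNT at 0 h (2.24 and -1.53), and at 24 h EGR1 shows low values of siELMO1 against both siNT (-1.50) and Mock (-1.40) with siNT against Mock at 0.09.

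At 24 h of poly(I:C) the same transfections were compared again. By this time the study reports massive cell death in siNT, and its part in the values was not tested. EGR1, FOSL1 and JUNB stood lowest in siELMO1, below siNT and Mock, and FOSL2 was higher than in both. ATF3 lay between, with siELMO1 above siNT and below Mock, and JUND did likewise. Of the 10 genes, 4 were higher and 3 lower in siELMO1 than in siNT (26.0% and 26.5% of all genes), 1 was higher and 7 lower in siELMO1 than in Mock (21.6% and 22.0%), and 1 was higher and 5 lower in siNT than in Mock (25.2% and 24.9%). The median log2 fold change of the group was -0.71 in siELMO1 against Mock and -0.45 in siNT against Mock, with that of all genes at -0.01 and 0.00. The summed level of the endothelial markers at 24 h was 2642 to 3211 CPM in siELMO1, 1892 to 2114 CPM in siNT and 1486 to 1878 CPM in Mock, that of the epithelial markers was 533 to 627, 533 to 545 and 484 to 494 CPM, and that of the fibroblast and mural markers was 49.0 to 62.5, 46.1 to 68.5 and 19.8 to 30.9 CPM. Their part in these differences was not tested.

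EGR1 was 2.82-fold lower in siELMO1 than in siNT (log2 fold change -1.50 ± 0.17, adjusted p = 8.68e-07) and 2.65-fold lower than in Mock (-1.40 ± 0.17, adjusted p = 2.3e-06). Its difference between siNT and Mock was 0.09 with a 95% interval from -0.25 to 0.43. FOSL1 was lower in siELMO1 than in siNT by -0.68 ± 0.10 (adjusted p = 2.83e-05) and than in Mock by -0.86 ± 0.10 (adjusted p = 2.91e-06). JUNB was lower by -0.31 ± 0.09 (adjusted p = 0.00656) and -0.45 ± 0.09 (adjusted p = 0.000452). FOSL2 had its highest levels of the data in siELMO1 at 24 h, 142, 139.9 and 150.3 CPM, above siNT by 0.25 ± 0.05 (adjusted p = 0.000184) and above Mock by 0.67 ± 0.05 (adjusted p = 4.03e-09). The antisense gene FOSL2-AS1 overlaps FOSL2, and its reads could not be told apart if strand was not used in counting. A gene without a symbol also overlaps FOSL2 on the same strand, where counting by strand would not separate the reads.

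At 24 h ATF3 was 4.66-fold lower in siNT than in Mock (log2 fold change -2.22 ± 0.08, adjusted p = 6.17e-12), the largest difference between transfections in the group at that time. In siELMO1 it was higher than in siNT by 0.97 ± 0.08 (adjusted p = 3.63e-08) and lower than in Mock by -1.25 ± 0.08 (adjusted p = 2.21e-09). JUND was at 126, 136 and 130.0 CPM in Mock, 71.3, 71.9 and 74.0 in siNT and 85.9, 85.3 and 86.5 CPM in siELMO1, with no overlap. It was lower in siNT than in Mock by -0.85 ± 0.08 (adjusted p = 9.5e-08) and lower in siELMO1 than in Mock by -0.61 ± 0.08 (adjusted p = 5.2e-06), and siELMO1 was above siNT by 0.25 ± 0.08 (adjusted p = 0.012), a call lost with library totals (adjusted p = 0.0575). FOSB was higher in siELMO1 than in siNT by 1.10 ± 0.23 (adjusted p = 0.000595) and lower in siNT than in Mock by -1.42 ± 0.23 (adjusted p = 5.99e-05).

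BATF3 and FOS were lower in both siRNA groups than in Mock at 24 h, and neither passed the test between the siRNA groups. BATF3 differed from Mock by -1.45 ± 0.32 (adjusted p = 0.000943) in siNT and -1.10 ± 0.31 (adjusted p = 0.00803) in siELMO1. Its difference between siELMO1 and siNT was 0.36 ± 0.32 and became 0.93 (adjusted p = 0.00963) without siNT 24 h replicate 3, the siNT library at 2.41 CPM. FOS differed from Mock by -0.82 ± 0.28 (adjusted p = 0.0226) in siELMO1 and -0.72 ± 0.28 (adjusted p = 0.0381) in siNT, and both calls were lost without Mock 24 h replicate 2 (adjusted p = 0.109 and 0.159), the highest FOS library, among others. JUN did not pass the test in any of these comparisons. FOSL1 differed between siNT and Mock by -0.18 ± 0.10 (adjusted p = 0.165), and in a fit of only those 6 libraries it did pass without the replicate block (-0.18, adjusted p = 0.0395). It also passed with that block (-0.18, adjusted p = 0.00472), in a fit added after seeing the data.

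Whether the response to poly(I:C) itself differed between transfections was tested as a difference of the log2 fold changes. A gene is said to respond less where its log2 fold change was lower, also where it fell or had no called change. ATF3, JUNB, FOSL1 and JUND responded less in siNT than in Mock, and no gene of the group was called as responding more. EGR1, FOS and FOSB responded less, and ATF3, FOSL1 and FOSL2 more, in siELMO1 than in siNT. Of the 10 genes, 0 had a higher and 4 a lower response in siNT than in Mock, where 14.9% of all genes were higher and 16.0% lower. That count of 0 from edgeR was also 0 with an unadjusted p under 0.05, with DESeq2 and with limma-voom, and it was 1 with library totals, the gene being FOSL2 (0.19, adjusted p = 0.0394). The response in siELMO1 was higher than in Mock for 1 gene and lower for 5 (13.8% and 14.6% of all genes), and higher than in siNT for 3 and lower for 3 (16.7% and 17.8%).

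For EGR1 the response in siELMO1 differed from that in siNT by -1.19 ± 0.24 (SE; adjusted p = 0.000779) and from that in Mock by -1.02 ± 0.24 (adjusted p = 0.00356), while siNT and Mock differed by 0.17 with a 95% interval from -0.32 to 0.66. For ATF3 the response in siNT differed from that in Mock by -1.01 ± 0.12 (adjusted p = 5.69e-06), and siELMO1 differed from siNT by 0.69 ± 0.12 (adjusted p = 0.000297). For FOSL1 the same differences were -1.13 ± 0.15 (adjusted p = 1.45e-05) and 0.85 ± 0.15 (adjusted p = 0.000207). FOSL1 in siELMO1 against Mock had -0.28 ± 0.15 (adjusted p = 0.171), which became -0.44 (adjusted p = 0.000863) without siELMO1 0 h replicate 1. For JUNB siNT and siELMO1 differed from Mock by -1.0 ± 0.13 (adjusted p = 1.17e-05) and -0.75 ± 0.13 (adjusted p = 0.000307).

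The siNT response was thus the smallest of the 3 for ATF3 and FOSL1 and the siELMO1 response the smallest for EGR1. FOSL2 responded more in siELMO1 than in Mock (0.63 ± 0.06, adjusted p = 1.44e-06) and than in siNT (0.52 ± 0.06, adjusted p = 6.23e-06). JUND responded less in siNT (-0.72 ± 0.11, adjusted p = 6.93e-05) and in siELMO1 (-0.55 ± 0.11, adjusted p = 0.000972) than in Mock. The log2 fold changes of FOS and FOSB were lower in siELMO1 than in siNT, by -1.30 ± 0.40 (adjusted p = 0.0167) and -1.14 ± 0.32 (adjusted p = 0.0106). For FOS they were -0.35 in siELMO1 (not called) and 0.95 in siNT, and the libraries of both overlapped at 24 h. For FOSB they were -0.66 in siELMO1 and 0.48 in siNT (not called). Against Mock the differences of siELMO1 were -0.33 ± 0.12 (adjusted p = 0.049) for ATF3 and -0.89 ± 0.31 (adjusted p = 0.0392) for FOSB, and both were lost under several alternatives, among them for ATF3 the fit without siELMO1 0 h replicate 1 (-0.29, adjusted p = 0.094). Without that library JUND responded more in siELMO1 than in siNT (0.29, adjusted p = 0.00849, against 0.17 with it). BATF3 and JUN had no called difference in response with all libraries. Without siNT 24 h replicate 3 the BATF3 response was called as higher in siELMO1 than in siNT (1.24, adjusted p = 0.022, against 0.66 with it). The JUN response was called as higher in siELMO1 than in Mock with library totals (0.27, adjusted p = 0.0427) and without Mock 24 h replicate 2 (0.29, adjusted p = 0.0299).

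Other genes of the same pathways were counted by list. Of 16 tested leucine zipper genes that can partner AP-1 proteins or share their sites (19 listed), 15 rose and 0 fell with poly(I:C) in Mock, 13 rose and 1 fell in siNT, and 12 rose and 0 fell in siELMO1, with median log2 fold changes of 0.75, 0.52 and 0.47. Of all genes tested, 30.7% rose and 29.6% fell in Mock, 28.6% and 25.2% in siNT, and 28.0% and 26.9% in siELMO1. Among the partners BATF2, a relative of BATF3 induced by interferon, rose by 4.94, 3.11 and 5.04, and CEBPD, an acute-phase factor, by 3.97, 1.74 and 3.38 on the log2 scale. Of 5 listed genes of the EGR family and its cofactors, NAB1 and NAB2 were tested; in Mock both rose (0.42 and 0.56), in siNT NAB2 rose (0.55) and in siELMO1 NAB1 rose (0.55). At 24 h NAB2 was lower in siELMO1 than in siNT by -0.66 ± 0.08 (adjusted p = 1.37e-06), and NAB1 was higher by 0.58 ± 0.09 (adjusted p = 5.89e-05).

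Of 31 tested immediate-early genes outside the group (32 listed), 24 rose and 3 fell in Mock, 18 rose and 3 fell in siNT, and 18 rose and 4 fell in siELMO1, with medians of 0.48, 0.40 and 0.34, against 30.7% and 29.6%, 28.6% and 25.2%, and 28.0% and 26.9% of all genes. In Mock the nuclear receptors NR4A3 and NR4A2 rose by 2.18 and 2.06 and the MAP kinase phosphatase DUSP8 by 2.02. All 3 began low in Mock at 0 h, at 0.498 to 1.18 CPM for NR4A3, 1.54 to 2.01 CPM for NR4A2 and 0.447 to 0.702 CPM for DUSP8. The response of NR4A2 in siELMO1 differed from that in Mock by -2.71 ± 0.28 (adjusted p = 1.58e-06) and from that in siNT by -1.29 ± 0.28 (adjusted p = 0.00167). Of the 21 MAP kinases, ELK and MRTF factors and turnover factors upstream of the group, 8 rose and 7 fell in Mock, 4 rose and 7 fell in siNT, and 5 rose and 10 fell in siELMO1, with medians of -0.07, -0.06 and -0.13. In Mock these counts lay near the shares of all genes, 30.7% and 29.6%. The shares of all genes were 28.6% and 25.2% in siNT and 28.0% and 26.9% in siELMO1. Of them ELK4, a serum response factor partner, fell by 0.67 in Mock, and MAP2K1, the MEK1 kinase, rose by 0.47 in siNT and 0.63 in siELMO1. MAPK9 fell in siNT (-0.70), and MRTFB (-0.53) and MAPK3 (-0.53) fell in siELMO1. The transcripts of these kinases say nothing of their activity, which was not measured here.

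Of 28 tested genes known as AP-1 targets (30 listed), 20 rose and 6 fell in Mock, 18 rose and 3 fell in siNT, and 18 rose and 6 fell in siELMO1, with medians of 0.83, 0.74 and 0.60, against 30.7% and 29.6%, 28.6% and 25.2%, and 28.0% and 26.9% of all genes. The cytokine IL6 rose by 8.24, 4.96 and 5.79 on the log2 scale, from between 0.772 and 3.19 CPM at 0 h, and the chemokine CXCL8 by 6.20 in Mock and 5.04 in siELMO1. Between siELMO1 and siNT at 0 h, 11 were higher and 9 lower, near the 31.3% of all genes in each direction, among them PTGS2 (3.62 ± 0.14, adjusted p = 6.28e-13), higher, and CCND1 (-2.22 ± 0.05, adjusted p = 1.07e-15), lower. At 24 h 11 were higher and 13 lower (26.0% and 26.5% of all genes), with CSF2 higher by 4.03 ± 0.28 (adjusted p = 2.52e-09) and SERPINB2 lower by -2.52 ± 0.08 (adjusted p = 1.16e-12). Targets are not particular to AP-1, since NF-κB and other factors also control many of them.

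Shares of the annotated transcripts were read from the transcript counts. JUNB-201 and EGR1-201 are the only annotated transcripts of their genes, and JUND-201 and FOSL2-201 held at least 98.0% of their gene's counts in every library. The coding transcript ATF3-202 held 82.6% to 94.9% of ATF3 counts as a mean of each condition, and FOSL1-201 held 62.8% to 68.9%, with FOSL1-203 at 20.5% to 27.1%. FOS-201 held 70.6% to 90.2%. For FOSB the shares moved widely among libraries of 1 condition, for example from 20.3% to 87.7% for FOSB-201 in siELMO1 at 24 h, and no order was read from them. BATF3-201, the coding form, held 43.8% to 81.2% as a mean of each condition, and the rest was mostly BATF3-203, which has no annotated coding sequence. JUN-201 and JUN-203 are models of the same length, and the split between them was not interpreted.

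The genes with the most similar pattern of log2 CPM over the 18 libraries are given as a description. They were TMEM171 (Pearson r = 0.996), CTSS (0.994) and TENT5A (0.991) for JUNB, LRP1B (0.988), UNK (0.982) and CNKSR3 (0.982) for ATF3, and OTUD4 (0.980), SQSTM1 (0.972) and MFSD2A (0.971) for FOSL1. For EGR1 they were SASH1 (0.966), CEP350 (0.956) and SERPINB2 (0.953), the last of which is on the list of AP-1 targets. JUN had the weakest best match, CCDC26 at 0.854. The libraries share 6 conditions and the search ran over all tested genes that have a symbol, so high values are easily found.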

How the data were processed

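RNA sequencing of 18 libraries of EA.hy926 cells was used, 3 for each of 6 conditions. According to the labels and the study's methods, stranded mRNA libraries were read as paired ends, aligned with STAR to GRCh38 and quantified with StringTie. The authors deposited estimated counts (expected counts) per gene and per transcript, which are whole numbers and are not normalized. The read length assumed in the conversion to counts and the counting strand are not given in the sources used here. Reads of overlapping genes on opposite strands may therefore be shared, and counts are not independent molecules, so that totals overstate the depth. Libraries held 40.4 to 73.9 M counts, and 3 counts, the limit that a count of 0 allows, corresponded to 0.0383 to 0.0752 CPM, for counting error only.

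The members and lists were chosen with earlier results of these data known. All 10 members were named, and of other genes the 4 with the largest called change of a list in a comparison were nameable. The lists held other leucine zipper partners, EGR cofactors, immediate-early genes, upstream factors and AP-1 targets, and endothelial, epithelial, leukocyte, fibroblast and mural markers. 1 edgeR 4.0.16 model (R 4.3.3) with TMM factors (0.958 to 1.06) and 1 mean per condition was fitted to 15167 genes, after the filter of the study. The two-sided quasi-likelihood test was applied to 12 comparisons, and a gene was called at a Benjamini-Hochberg adjusted p under 0.05 over all genes tested. The biological coefficient of variation was 12.2%. Intervals are 95% intervals of the fit. The study itself used limma with dream, and edgeR was used here because the values are counts. The scripts were tested on simulated data. TPM was computed from transcript counts and annotated lengths, for 252835 of 252894 transcripts. Promoter sequences came from RefSeq, matched by symbol, and motifs were searched on both strands.

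Alternatives were DESeq2 1.42.0, limma-voom (limma 3.58.1), library totals or upper-quartile factors, filterByExpr or no filter, only the conditions compared, the replicate number as a block, and each library left out. Deviations from the condition means were compared between equally numbered libraries over 9640 genes of at least 10 CPM, and the median r of 45 pairs was 0.028. Each of the 3 pairs of Mock with siNT at 24 h exceeded 0.1 (0.289, 0.335 and 0.251), so a block was tried for these libraries, although the labels state no pairing. Libraries of unequal number were not compared in this way, so the values do not establish a pairing. For this comparison the block with only its 6 libraries was added after seeing the data. The 3 pairs of siELMO1 at 0 h with siNT at 24 h also exceeded 0.1 (0.218, 0.203 and 0.119). These conditions are not compared directly and meet only in the difference between the responses of siELMO1 and siNT.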

Additional observations from a re-analysis of the deposited data

Results flagged for a closer look

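The results below were noted because the response to poly(I:C) of a gene differed between transfections by the test of the difference itself (edgeR interaction, 3 libraries a condition). Groups of 3 libraries were too small to be searched for single outlying libraries. Between siNT and Mock the responses differed by -1.13 for FOSL1, -1.01 for ATF3, -1.0 for JUNB and -0.72 for JUND on the log2 scale. Between siELMO1 and Mock they differed by -1.02 for EGR1, -0.89 for FOSB, -0.75 for JUNB, -0.55 for JUND, -0.33 for ATF3 and 0.63 for FOSL2. Between siELMO1 and siNT they differed by -1.30 for FOS, -1.19 for EGR1, -1.14 for FOSB, 0.52 for FOSL2, 0.69 for ATF3 and 0.85 for FOSL1. The comparisons share libraries and are not independent of each other.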

How the results depend on the processing

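Across 970 values under other settings, 930 kept their side of the threshold, 20 lost a call and 20 gained one. Across 900 values with a library left out, 844 did, 41 lost a call and 15 gained one, and no called value changed sign under any alternative that was run. Values that were not called could change sign. For JUND in siELMO1 against siNT at 0 h the log2 fold change was 0.08, and -0.04 without siELMO1 0 h replicate 1. The number of the 10 genes called stayed within 1.5 times the main count in every comparison. With a library left out it ran from 4 to 6 for siELMO1 against Mock at 0 h and for the difference between their responses, where 6 were called. The difference in the ATF3 response between siELMO1 and Mock (adjusted p = 0.049) was lost under DESeq2 (0.0572), limma-voom (0.0804), library totals (0.118), upper-quartile factors (0.0613), filterByExpr (0.0622), no filter (0.169), only the libraries compared (0.0888) and when 10 of the single libraries were left out, and that of FOSB was lost with library totals (0.0516), filterByExpr (0.0518), no filter (0.109) and when 9 of the single libraries were left out. The cause was not tested.

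The replicate block changed 5 of 120 calls. With it the 0 h difference of EGR1 between siELMO1 and Mock (-0.39, adjusted p = 0.0346), JUN in siNT against Mock at 0 h (-0.13, adjusted p = 0.0477), the JUN response in siNT (0.16, adjusted p = 0.0234) and its difference between siELMO1 and Mock (0.22, adjusted p = 0.0425) were gained, and the ATF3 difference between siELMO1 and Mock was lost (adjusted p = 0.0558). None of the 5 was in the difference between the responses of siELMO1 and siNT, in which the equally numbered libraries of siELMO1 at 0 h and siNT at 24 h meet. In other pairs of conditions the equally numbered libraries did not all exceed an r of 0.1. FOS, FOSB, EGR1 and BATF3 rest on 14 to 525 counts in a library, which limits the precision of their values.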
